A study of Mus musculus with 8 samples.

Results

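Voltage-gated sodium and calcium channel genes were compared between the brains of adult male mice labelled TNF-/- and TNF+/+. The members were chosen by name: every gene whose symbol starts with Cacna, Cacnb or Cacng, or is Scn followed by a number and a or b, and that has at least 1 probe set with a single gene symbol in the platform annotation. The rule gave 35 of the 19938 genes measured this way, and 51 of all 35556 probe sets. Where a gene had several such probe sets, the brightest on average over all arrays stood for it. The 35 genes comprise 8 sodium channel alpha subunits, 3 sodium channel beta subunits, 4 Cav1, 3 Cav2 and 3 Cav3 pore subunits, 4 alpha2delta subunits, 3 calcium channel beta subunits and 7 gamma subunits. The RefSeq table lists 40 mouse genes with such symbols, and the other 5 were not analysed here.

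Total RNA from whole brain lysates of males aged 2 to 4 months was hybridised to Affymetrix Mouse Gene 1.0 ST arrays. Of the 8 arrays, 4 carry the label TNF-/- and 4 the label TNF+/+. Tnf encodes tumour necrosis factor, a cytokine. The labels of the TNF+/+ arrays add C57BL/6; those of the TNF-/- arrays name no strain, and neither the mutant allele nor its deleted part is stated. No treatment was given, and the titles call the samples biological replicates.

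Voltage-gated sodium channels open on depolarisation and carry the upstroke of the action potential; a large alpha subunit forms the pore, and small beta subunits adjust gating and surface level. Voltage-gated calcium channels admit calcium on depolarisation, which drives transmitter release, dendritic spikes and calcium-dependent gene expression. Their pore subunits fall into the Cav1 (L-type), Cav2 (P/Q-, N- and R-type) and Cav3 (T-type) families, with extracellular alpha2delta and intracellular beta subunits that help bring Cav1 and Cav2 channels to the membrane. Most of the gamma genes that the brain expresses encode TARPs, auxiliary subunits of AMPA-type glutamate receptors.

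The array medians lay between 5.03 and 5.11 on the log2 scale, and the lower quartile was 3.95 to 3.97 on the arrays labelled TNF-/- and 4.00 to 4.04 on those labelled TNF+/+. The Tnf probe set went against the labels: its signal was 5.67 to 6.21 on the arrays labelled TNF-/- and 4.24 to 4.93 on those labelled TNF+/+, a difference of 1.39 ± 0.16 (SE, n = 4 each; limma adjusted p = 0.0278). Where its probes lie relative to the deletion is not stated, so every direction here follows the labels alone. The array labelled TNF+/+ 1 stood apart in cerebellar granule cell markers: Gabra6, a GABA receptor subunit, read 4.01 to 4.34 on the arrays labelled TNF-/-, against 8.21 on TNF+/+ 1 and 4.12 to 4.42 on TNF+/+ 2 to 4. Outside TNF+/+ 1, all these Gabra6 values lay under 5.08, the mean signal of the median probe set. Neuronal markers (Snap25, Syt1, Stmn2, Rbfox3, Tubb3, Nefl) were measured at a mean of 10.79 to 10.80 on the arrays labelled TNF-/-, against 10.73 to 10.84 on those labelled TNF+/+, overlapping ranges. In such bulk samples, fewer cells of a type and less RNA per cell cannot be told apart.

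No channel gene passed the test across all probe sets. By limma with Benjamini-Hochberg adjustment, 0 of the 35 channel genes had an adjusted p under 0.05, against 0.0502% of all 19938 genes. By SAM (Significance Analysis of Microarrays, the method the series' design text names) at an estimated false discovery rate under 5%, the count was also 0 of 35, against 0.11% of all genes. At an unadjusted limma p under 0.05, 5 channel genes (14.3%) were higher on the arrays labelled TNF-/- (Scn9a, Scn7a, Scn3b, Cacna2d1 and Cacna2d2), where 7.37% of all genes were. Cacna1s alone (2.86%) was lower at that level, where 4.28% of all genes were. These shares pool dim and bright genes. By direction, 6874 of the 10674 genes above the median probe set were higher, against 2658 of the 9264 below it. All 5 higher channel genes lay above it, as did 28 of the 35. The share among genes as bright was not worked out. The signals of the groups did not overlap for 3 genes higher on the arrays labelled TNF-/- (8.57%, against 4.16% of all genes) and for 1 lower gene (2.86%, against 3.5% of all genes). Without TNF+/+ 1, limma called 0 channel genes, and at an unadjusted p under 0.05 4 were higher (all but Scn3b) and 2 lower (Cacna1s and Cacng4). With counts this small, 1 gene moves a share by 2.86 percentage points.

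By direction alone, on the arrays labelled TNF-/- 14 channel genes were higher and 21 lower, and the median difference was -0.03 on the log2 scale; over all genes, 9532 were higher and 10406 lower, with a median of -0.01. The sign of the channel gene median depended on single arrays: it was 0.03 without TNF-/- 4, 0.01 without TNF+/+ 1 and 0.00 without TNF+/+ 2, and 0.01 with dim probe sets left out. All differences are log2 signal of the arrays labelled TNF-/- minus that of the arrays labelled TNF+/+, with limma's moderated standard error. The 35 differences ran from -0.23 for Cacng4 to 0.50 for Scn9a. In every subfamily the per-array means of its members overlapped between the groups.

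**Figure D1:**
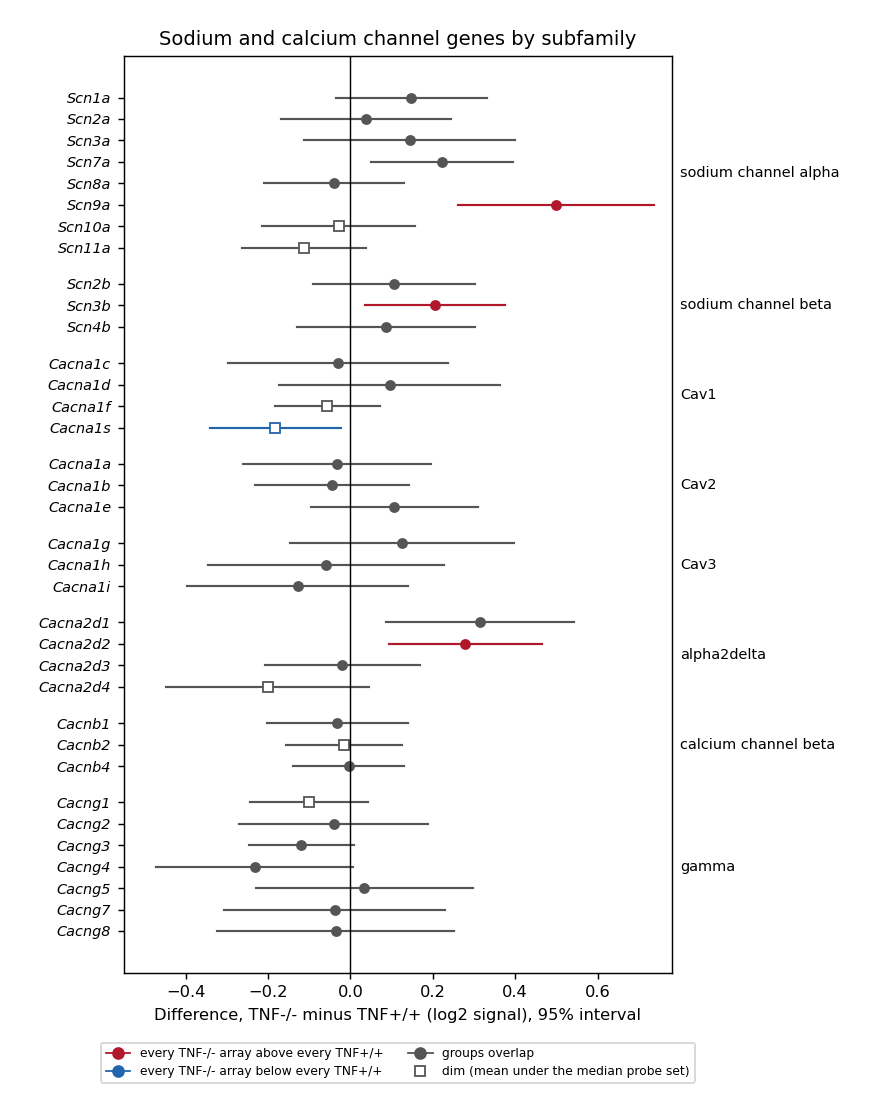
Difference in log2 signal (arrays labelled TNF-/- minus arrays labelled TNF+/+) of the 35 channel genes by subfamily, each with its 95% interval; colour marks groups that do not overlap and open squares mark a mean under the median probe set. Scn9a lies at 0.50, Cacna2d1 at 0.31 and Cacna2d2 at 0.28, the calcium channel beta subunits lie between -0.03 and 0, and 6 of the 7 gamma subunits lie below 0.

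Of the 5 higher genes, 4 lie in 2 groups, neighbours on 1 chromosome and paralogs of 1 subunit family. Promoter windows are shown for these 4, while Scn3b had none. They are the 250 bases before the annotated start in RefSeq GRCm38.p6, written 5′ to 3′ on the gene's strand: Scn9a at chr2:66634963-66635212 (minus strand), Scn7a at chr2:66784911-66785160 (minus strand), Cacna2d2 at chr9:107399630-107399879 (plus strand) and Cacna2d1 at chr5:15934441-15934690 (plus strand). Capitals mark matches on either strand to any of 5 motifs searched, which may overlap: the GC box GGGCGG, the TATA box TATAAA, the cyclic AMP response element core TGACG, the left part of the RE1 silencer element CAGCACC, and a loose kappaB-like pattern GGGNNNNNCC, after the family of factors that TNF signalling activates.
Scn9a: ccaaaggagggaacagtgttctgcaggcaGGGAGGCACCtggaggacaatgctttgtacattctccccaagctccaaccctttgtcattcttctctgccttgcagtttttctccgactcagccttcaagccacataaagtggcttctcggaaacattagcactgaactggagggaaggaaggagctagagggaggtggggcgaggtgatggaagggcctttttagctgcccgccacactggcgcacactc
Scn7a: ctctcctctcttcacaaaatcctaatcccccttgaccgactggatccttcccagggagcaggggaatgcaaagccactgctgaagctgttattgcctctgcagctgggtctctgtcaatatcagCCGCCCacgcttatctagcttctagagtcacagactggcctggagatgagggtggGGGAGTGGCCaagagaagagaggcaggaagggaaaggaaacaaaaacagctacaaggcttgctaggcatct
Cacna2d2: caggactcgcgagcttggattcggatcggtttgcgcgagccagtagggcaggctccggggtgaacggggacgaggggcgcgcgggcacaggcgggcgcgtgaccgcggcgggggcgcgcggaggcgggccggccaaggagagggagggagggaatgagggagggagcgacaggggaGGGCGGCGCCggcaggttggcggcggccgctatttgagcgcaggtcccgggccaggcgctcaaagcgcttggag
Cacna2d1: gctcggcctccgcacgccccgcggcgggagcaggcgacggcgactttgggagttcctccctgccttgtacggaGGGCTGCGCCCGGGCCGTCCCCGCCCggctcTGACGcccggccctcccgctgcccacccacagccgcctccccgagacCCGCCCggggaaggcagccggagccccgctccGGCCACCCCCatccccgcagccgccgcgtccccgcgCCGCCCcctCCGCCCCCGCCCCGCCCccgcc
The Scn9a window held 1 kappaB-like match and no GC box. The windows of Scn7a and Cacna2d2 each held 1 of each, with GC content of 53.2% and 74.4%, while that of Cacna2d1, at 82.4% GC, held 6 GC boxes, 5 kappaB-like matches and 1 cyclic AMP core. No window of the 4 held a TATA box or RE1 left part. Windows were given for 27 of the 35 channel genes, 37 windows in all. A kappaB-like match was found in 22 of these 37 (59.5%) and in 45.8% of all 32851 promoter windows, so the pattern is common. A GC box was in 14 of the 37 (37.8%, against 32.7% of all windows), a cyclic AMP core in 6 (16.2%, against 17.8%), a TATA box in 2 (5.41%, against 12.4%) and the RE1 left part in 0 (against 5.73%). The median GC content was 56.8% over the channel gene windows and 52.4% over all. These are matches of letters in the reference sequence and say nothing of binding.

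Among the sodium channel alpha subunits, 5 genes were higher and 3 lower on the arrays labelled TNF-/-, with a median difference of 0.09 and a range of -0.11 to 0.50. Without TNF+/+ 4 the median was 0.01. The difference furthest from 0 among all 35 members was that of Scn9a, which encodes Nav1.7, a channel best known from sensory and sympathetic neurons that also occurs in some brain neurons. Scn9a had a log2 signal of 6.03, 6.10, 6.21 and 6.18 on the arrays labelled TNF-/- 1 to 4, against 5.52, 5.92, 5.44 and 5.63 on the arrays labelled TNF+/+ 1 to 4. Every array labelled TNF-/- lay above every array labelled TNF+/+, with the closest pair, TNF-/- 1 and TNF+/+ 2, 0.10 apart. The means were 6.13 ± 0.08 and 5.63 ± 0.21 (SD, n = 4 each), a difference of 0.50 ± 0.10 (SE) or 1.41-fold, with a 95% interval of 0.26 to 0.74, and the limma adjusted p was 0.198 (unadjusted p = 0.00116). The exact two-sided permutation test gave p = 0.0286, the smallest that 4 against 4 arrays allow. A second Scn9a probe set behaved alike, at 4.84, 4.80, 4.93 and 4.73 on the arrays labelled TNF-/-, against 4.22, 4.36, 4.52 and 4.15 on those labelled TNF+/+. Again the groups did not overlap, and its difference was 0.51 ± 0.09 (SE, n = 4 each; limma adjusted p = 0.128). This second probe set had a mean of 4.57, under the median probe set. With the probe sets of each gene averaged before the test, the Scn9a difference was 0.51 with a limma adjusted p of 0.0218, and 62 of the 19938 genes passed in that setting. This setting was the exception among 17 alternatives: in the other 16 the adjusted p of Scn9a lay between 0.073 and 0.459.

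Scn7a encodes NaX, a sodium channel relative that senses the sodium level in glia of the brain's sodium-sensing organs and is not opened by voltage. Its signal was 5.49, 5.76, 5.73 and 5.82 on the arrays labelled TNF-/-, against 5.51, 5.45, 5.48 and 5.47 on those labelled TNF+/+. TNF-/- 1 lay among the arrays labelled TNF+/+ and the other 3 arrays of its group lay above them all. The means were 5.70 ± 0.14 and 5.48 ± 0.03 (SD, n = 4 each), a difference of 0.22 ± 0.08 (SE) with a 95% interval of 0.05 to 0.39 (limma adjusted p = 0.372). Leaving out each array in turn gave differences of 0.18 to 0.29, with limma adjusted p between 0.18 and 0.639. The largest difference was that without TNF-/- 1.

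**Figure D2:**
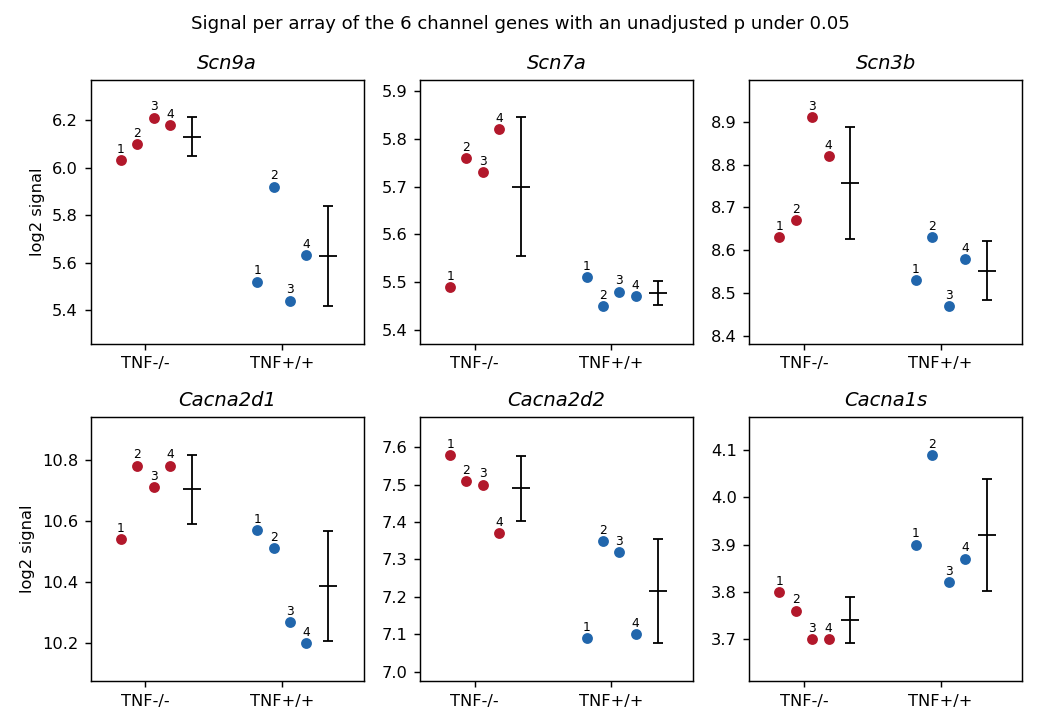
Log2 signal per array of the 6 channel genes with an unadjusted limma p under 0.05, arrays labelled TNF-/- on the left and TNF+/+ on the right of each panel, with a separate scale per gene and bars for mean ± SD (n = 4 each). The groups are separate for Scn9a, Scn3b, Cacna2d2 and Cacna1s, where the gap is 0.10 or less, and overlap for Scn7a and Cacna2d1.

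Markers of other cell types stood as follows beside Scn9a and Scn7a. The 5 meningeal fibroblast markers were all higher by direction on the arrays labelled TNF-/- (median difference 0.22), and their per-array means, 6.51 to 6.61 against 6.24 to 6.46, did not overlap. The 4 choroid plexus markers were also all higher (median 0.16), with means of 7.63 to 7.79 on the arrays labelled TNF-/- and 7.40 to 7.73 on those labelled TNF+/+, which overlapped. Of the sensory ganglion markers 4 of 5 were measured, all with a mean under the median probe set of 5.08, and their per-array means were 4.07 to 4.23 on the arrays labelled TNF-/- and 4.00 to 4.20 on those labelled TNF+/+. Of these markers 2 were higher and 2 lower by direction, with a median difference of -0.06. Isl1, which some brain neurons also express, had groups that did not overlap (difference 0.32). Mrgprd differed by -0.18, Trpv1 by -0.12 and Prph by 0.00, and their groups overlapped. The part of these cells in the Scn9a and Scn7a values was not tested.

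The remaining alpha subunits include the main channels of brain axons. Scn2a, which encodes Nav1.2 of excitatory neurons, read 10.87, 10.86, 10.95 and 10.92 on the arrays labelled TNF-/-, against 11.04, 11.01, 10.69 and 10.71 on those labelled TNF+/+. The arrays labelled TNF-/- lay between the pair TNF+/+ 3 and 4 below and the pair TNF+/+ 1 and 2 above, so the groups overlapped fully. The difference was 0.04 ± 0.09 (SE, n = 4 each), with a 95% interval of -0.17 to 0.24 (limma adjusted p = 0.895). Scn2a had 14 probe sets, 12 higher and 2 lower on the arrays labelled TNF-/-, with differences of -0.07 to 0.18 and a median of 0.06; 0 of the 14 reached an unadjusted limma p under 0.05, and for 0 were the groups separate. Scn1a, the Nav1.1 channel of fast-spiking interneurons, differed by 0.15 ± 0.08 (95% interval -0.04 to 0.33) and its 2 lowest arrays were TNF+/+ 3 and 4, at 9.34 and 9.31. For Scn3a, most active before birth, the difference was 0.14 ± 0.11, with TNF+/+ 4 lowest at 7.67; without that array it was 0.03. For Scn8a, which encodes the Nav1.6 channel of mature axon initial segments and nodes, it was -0.04 ± 0.07. Scn10a (-0.03 ± 0.08) and Scn11a (-0.11 ± 0.07), channels of pain-sensing neurons, read between 3.34 and 3.68 on all 8 arrays, at the bottom of the scale, where the table gives no measure of background to set them against.

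**Figure D3:**
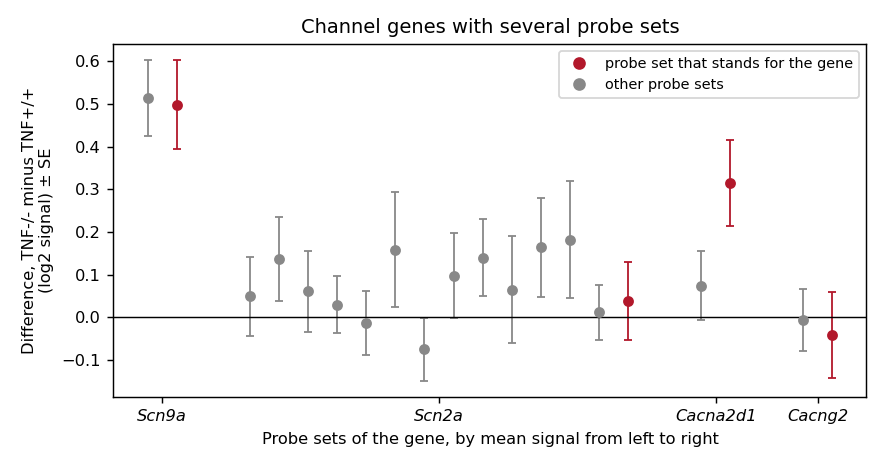
Difference in log2 signal (arrays labelled TNF-/- minus TNF+/+, with SE) of each probe set of the 4 channel genes that have several, ordered by mean signal from left to right within a gene. Both Scn9a probe sets lie near 0.50, the 14 of Scn2a between -0.07 and 0.18, and the 2 of Cacna2d1 at 0.31 and 0.07.

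Scn3a, Scn2a, Scn1a, Scn9a and Scn7a are neighbours in that order on mouse chromosome 2. All 5 were higher by direction on the arrays labelled TNF-/-, by 0.14, 0.04, 0.15, 0.50 and 0.22 in that order along the chromosome. The 4 other measured genes between Scn3a and Scn7a differed by -0.11 to 0.23, with a median of 0.16 and 3 of them higher. One of these, Gm13629, lies next to Scn9a and differed by 0.23 ± 0.09 (SE; limma adjusted p = 0.407). Over all 14 other measured genes of the cluster and its flanks, differences ran from -0.12 to 0.23 with a median of 0.00, and 7 were higher. Ttc21b, another of the 4 genes inside the cluster, differed by 0.18 ± 0.09 (SE) with groups that did not overlap. The genes next to the ends of the cluster were Slc38a11 at -0.01 and Gm1322 at -0.08. These and Gm13629 had means under the median probe set (4.71, 3.42 and 4.27). Without TNF+/+ 3 and 4, the differences were 0.0026 for Scn3a, -0.12 for Scn2a and 0.02 for Scn1a, against 0.41 for Scn9a and 0.22 for Scn7a.

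**Figure D4:**
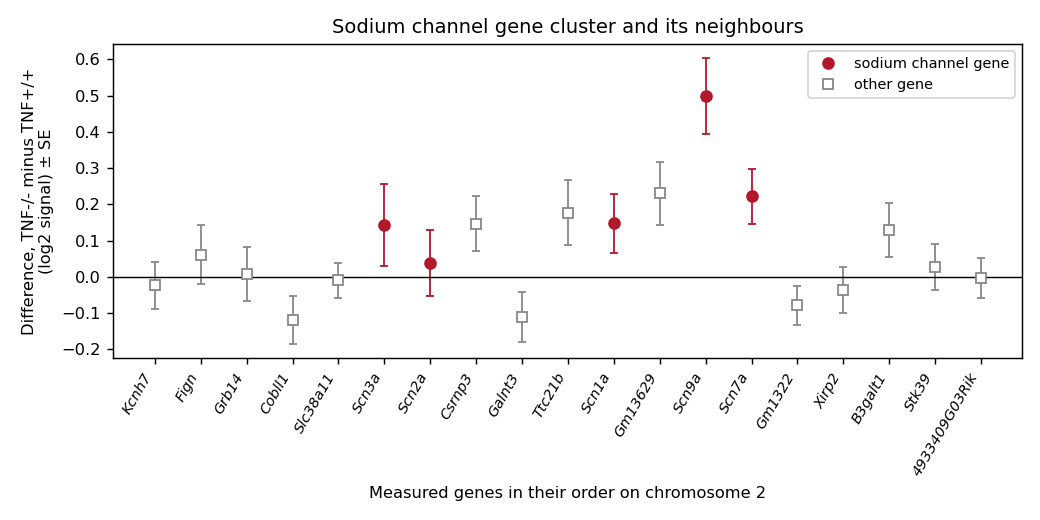
Difference in log2 signal (arrays labelled TNF-/- minus TNF+/+, with SE) of the 5 clustered sodium channel genes (filled) and 14 other measured genes (open) in their order on chromosome 2. Scn9a, at 0.50, and Scn7a, at 0.22, lie side by side at the end of the cluster, and the other genes lie between -0.12 and 0.23.

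All 3 sodium channel beta subunits were higher by direction, with a median difference of 0.11 and a range of 0.09 to 0.20. Scn3b, a beta subunit that shapes gating of neuronal sodium channels, had signals of 8.63, 8.67, 8.91 and 8.82 on the arrays labelled TNF-/-, against 8.53, 8.63, 8.47 and 8.58 on those labelled TNF+/+. The groups did not overlap, but TNF-/- 1 and TNF+/+ 2 were only 0.0059 apart. The means were 8.76 ± 0.13 and 8.55 ± 0.07 (SD, n = 4 each), a difference of 0.20 ± 0.07 (SE) with a 95% interval of 0.03 to 0.38 (limma adjusted p = 0.396). Scn2b, which links by a disulfide bond to the alpha subunit, read 9.88, 9.80, 9.96 and 9.98 on the arrays labelled TNF-/-, against 9.63, 9.74, 9.82 and 10.01 on those labelled TNF+/+. TNF+/+ 4 was the highest array of all, so the groups overlapped, and the difference of 0.11 ± 0.09 had an interval of -0.09 to 0.30. Scn4b, the subunit linked to resurgent current, differed by 0.09 ± 0.09.

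Of the pore subunits of calcium channels, 3 were higher and 7 lower by direction, and the medians were -0.04 for Cav1, -0.03 for Cav2 and -0.06 for Cav3. These medians turned or moved with single arrays: Cav2 was at 0.03 both without TNF-/- 4 and without TNF+/+ 1, Cav3 was at 0.03 without TNF-/- 4 and -0.18 without TNF-/- 1, and Cav1 was near 0 without TNF+/+ 1 (-1.12e-05). Cacna1s encodes the Cav1.1 channel of skeletal muscle, which starts contraction there. Its signal was 3.80, 3.76, 3.70 and 3.70 on the arrays labelled TNF-/-, against 3.90, 4.09, 3.82 and 3.87 on those labelled TNF+/+. All 4 arrays labelled TNF-/- were lower than all 4 labelled TNF+/+, by 0.02 at the closest. The difference was -0.18 ± 0.07 (SE, n = 4 each), with a 95% interval of -0.34 to -0.02 (limma adjusted p = 0.41), and it was -0.14 after quantile normalization (limma adjusted p = 0.592). The unadjusted limma p of Cacna1s was 0.0289 as reported and 0.0899 after quantile normalization. Cacna1s was therefore not counted as lower in that setting. All 7 skeletal muscle markers had a mean under the median probe set, with per-array means of 4.00 to 4.08 on the arrays labelled TNF-/- and 4.06 to 4.14 on those labelled TNF+/+.

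Cacna1s was 1 of 7 channel genes with a mean under the median probe set, and all 7 (with Scn10a, Scn11a, Cacna1f, Cacna2d4, Cacnb2 and Cacng1) were lower by direction on the arrays labelled TNF-/-; their median was -0.10. Among all genes that dim, 6606 of 9264 were lower and the median was -0.04. After quantile normalization, 5 of the 7 were lower with a median of -0.06, and 4881 of the 9264 with a median of -0.0048. The 28 brighter channel genes split into 14 higher and 14 lower, with a median of 0.01, while 6874 of 10674 brighter genes overall were higher, with a median of 0.05. After quantile normalization the brighter channel genes again split into 14 and 14, with a median of -0.0093, and 5906 of the 10674 were higher, with a median of 0.02.

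Cacna1c, the main Cav1 channel of brain and heart, read 7.89, 7.76, 7.70 and 7.53 on the arrays labelled TNF-/-, against 8.03, 7.77, 7.64 and 7.55 on those labelled TNF+/+. The 2 groups spanned nearly the same range, and the difference was -0.03 ± 0.12. Cacna1d, whose Cav1.3 channel opens at lower voltages and serves pacemaking, differed by 0.09 ± 0.12, and Cacna1f, the channel of photoreceptor synapses, by -0.06 ± 0.06.

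Among the Cav2 genes, which encode the channels of transmitter release, Cacna1e (R-type) had the smallest p. It read 9.55, 9.49, 9.47 and 9.29 on the arrays labelled TNF-/-, against 9.42, 9.51, 9.24 and 9.20 on those labelled TNF+/+. The groups overlapped, with TNF+/+ 3 and 4 the lowest, and the difference was 0.11 ± 0.09 (95% interval -0.10 to 0.31; limma adjusted p = 0.684). Cacna1a (P/Q-type), the main release channel of the mature brain and of Purkinje cells, differed by -0.03 ± 0.10, and Cacna1b (N-type) by -0.04 ± 0.08. Genes of the active zone scaffold that holds Cav2 channels at release sites stood at a median of -0.12, with 1 of 4 higher.

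For the Cav3 genes, which encode low-voltage channels behind rebound bursts, the thalamic relay channel Cacna1g read 7.85, 7.57, 7.44 and 7.31 on the arrays labelled TNF-/-, against 7.61, 7.39, 7.38 and 7.30 on those labelled TNF+/+. The ranges overlapped, with TNF-/- 1 the highest array, and the difference was 0.12 ± 0.12 (95% interval -0.15 to 0.40); without TNF-/- 1 it was 0.02. Cacna1i, the T-type channel of the reticular thalamus, read 7.49, 7.40, 7.24 and 6.95 on the arrays labelled TNF-/-, against 7.37, 7.55, 7.32 and 7.35 on those labelled TNF+/+. TNF-/- 4 was the lowest of the 8, and the difference was -0.13 ± 0.12 (95% interval -0.40 to 0.14; limma adjusted p = 0.712); without TNF-/- 4 it was -0.02. Cacna1h, on chromosome 17 like Tnf, differed by -0.06 ± 0.13. Thalamus markers had per-array means of 6.96 to 7.00 on the arrays labelled TNF-/- and 6.98 to 7.05 on those labelled TNF+/+.

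The alpha2delta subunits divided into 2 higher and 2 lower genes, with a median of 0.13 and a range of -0.20 to 0.31. Cacna2d1, the binding site of the gabapentinoid drugs, had signals of 10.54, 10.78, 10.71 and 10.78 on the arrays labelled TNF-/-, against 10.57, 10.51, 10.27 and 10.20 on those labelled TNF+/+. TNF-/- 1 lay below TNF+/+ 1, and the other 3 arrays labelled TNF-/- were the highest of all. The means were 10.7 ± 0.11 and 10.4 ± 0.18 (SD, n = 4 each), a difference of 0.31 ± 0.10 (SE) with an interval of 0.09 to 0.54 (limma adjusted p = 0.351). A second probe set of Cacna2d1 gave 9.60, 9.55, 9.54 and 9.63 on the arrays labelled TNF-/-, against 9.53, 9.71, 9.43 and 9.35 on those labelled TNF+/+. There TNF+/+ 2 was the highest array and the difference was 0.07 ± 0.08 (limma adjusted p = 0.758), so the probe sets differ in what they show. Without TNF+/+ 3 and 4, the first probe set differed by 0.16 (limma adjusted p = 0.579).

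Cacna2d2, an alpha2delta subunit abundant in cerebellar Purkinje cells, read 7.58, 7.51, 7.50 and 7.37 on the arrays labelled TNF-/-, against 7.09, 7.35, 7.32 and 7.10 on those labelled TNF+/+. The groups were separate by 0.02. The means were 7.49 ± 0.09 and 7.21 ± 0.14 (SD, n = 4 each), a difference of 0.28 ± 0.08 (SE) or 1.21-fold, with an interval of 0.09 to 0.46 (limma adjusted p = 0.315). Cerebellar granule and Purkinje markers averaged 6.46 to 6.57 on the arrays labelled TNF-/-, against 7.66 on TNF+/+ 1 and 6.47 to 6.51 on TNF+/+ 2 to 4. TNF+/+ 1 was high in the mean of these markers, but not the highest array for Calb1, Pvalb or Barhl1. Of the 12 markers, 4 had a mean under the median probe set: Gabra6, Cbln3, Pcp2 and Barhl1. TNF+/+ 1 was the lowest array for Cacna2d2, and without it the Cacna2d2 difference was 0.24 (limma adjusted p = 0.426). Cacna2d3 differed by -0.02 ± 0.08, and Cacna2d4, which serves photoreceptor channels, by -0.20 ± 0.11 with TNF+/+ 2 highest at 4.66.

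The calcium channel beta subunits, which mask a retention signal of the pore subunit and speed its traffic, lay closest to 0: all 3 were lower by direction, between -0.03 and 0, with a median of -0.02. Cacnb4, whose loss causes ataxia in lethargic mice, read 9.24, 9.39, 9.29 and 9.17 on the arrays labelled TNF-/-, against 9.28, 9.29, 9.25 and 9.28 on those labelled TNF+/+. The arrays labelled TNF+/+ all lay inside the range of the others, and the difference of -0.00 ± 0.06 had a 95% interval of -0.14 to 0.13. Cacnb1 read 8.51, 8.39, 8.68 and 8.56 on the arrays labelled TNF-/-, against 8.52, 8.47, 8.66 and 8.61 on those labelled TNF+/+, a difference of -0.03 ± 0.08 (95% interval -0.20 to 0.14). Here the replicates of each group spread more widely than the group means. Cacnb2, the beta subunit of heart channels, differed by -0.02 ± 0.06.

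Of the 7 gamma genes, 6 were lower and 1 higher by direction, with a median of -0.04 and a range of -0.23 to 0.03. The median was -0.13 without TNF+/+ 4. Cacng4, a TARP expressed in neurons and in oligodendrocyte precursors, read 6.64, 6.61, 6.38 and 6.28 on the arrays labelled TNF-/-, against 6.59, 6.90, 6.74 and 6.62 on those labelled TNF+/+. TNF-/- 3 and 4 were the lowest and TNF-/- 1 and 2 lay inside the range of the arrays labelled TNF+/+. The difference was -0.23 ± 0.10 (95% interval -0.47 to 0.01; limma adjusted p = 0.477). Oligodendrocyte precursor markers averaged 6.36 to 6.69 on the arrays labelled TNF-/- and 6.52 to 6.76 on those labelled TNF+/+. By direction 4 of 5 were lower, and Pdgfra was higher (0.07). TNF-/- 4 was lowest for the mean of these markers and for Cacng4. Among the single markers it was lowest for Gpr17, Olig2 and Sox10. For Pdgfra the lowest array was TNF+/+ 1 (7.82) and for Cspg4 it was TNF+/+ 2 (4.83). All 6 mature oligodendrocyte markers were lower by direction (median difference -0.35), with means of 8.93 to 9.08 on the arrays labelled TNF-/- and 9.09 to 9.44 on those labelled TNF+/+, which did not overlap. The part of these cells in the Cacng4 value was not tested.

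Cacng3, a TARP of the cerebral cortex, read 10.24, 10.07, 10.18 and 10.16 on the arrays labelled TNF-/-, against 10.32, 10.22, 10.28 and 10.30 on those labelled TNF+/+. Only TNF-/- 1 reached into the range of the arrays labelled TNF+/+, and the difference was -0.12 ± 0.06 (95% interval -0.25 to 0.01; limma adjusted p = 0.49). The other TARPs lay nearer to 0: Cacng2 (stargazin) differed by -0.04 ± 0.10, Cacng8, the main TARP of the hippocampus, by -0.04 ± 0.13, Cacng7 by -0.04 ± 0.12 and Cacng5 by 0.03 ± 0.12. Cacng1, the gamma subunit of the skeletal muscle channel, differed by -0.10 ± 0.06. AMPA receptor subunits and other auxiliaries stood at a median of 0.03, with 4 of 7 higher.

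Genes that anchor, modify or regulate these channels were listed by function under 46 names. Some of these are an older and a newer name of the same gene. Measured under those names were 40 genes. By limma 0 of the 40 had an adjusted p under 0.05 (0.0502% of all genes) and by SAM the count was also 0 (0.11% of all genes). At an unadjusted p under 0.05, 4 of the 40 were higher and 1 lower, where 7.37% and 4.28% of all genes were, so these counts are near the background. The groups did not overlap for 2 higher genes and 1 lower gene of the 40, where 4.16% and 3.5% of all genes did not. By direction 24 were higher and 16 lower, with a median of 0.03. The medians were 0.02 for the 8 genes of axon initial segment anchoring (ankyrins, neurofascin and others), 0.09 for the 4 FGF homologous factors, which bind sodium channel tails, 0.13 for the 4 genes of the NALCN sodium leak channel and 0.00 for the 13 calcium channel regulators. Rem2, a small GTPase that inhibits high-voltage calcium channels, read 5.94, 5.84, 5.88 and 6.27 on the arrays labelled TNF-/-, against 5.47, 5.64, 5.75 and 5.80 on those labelled TNF+/+. All arrays labelled TNF-/- were higher, and the difference was 0.32 ± 0.11 (SE; limma adjusted p = 0.379). Its relative Rrad read 4.28, 4.35, 4.20 and 4.17 on the arrays labelled TNF-/-, against 4.03, 4.05, 3.97 and 4.15 on those labelled TNF+/+, also without overlap (0.20 ± 0.06; limma adjusted p = 0.358). Stac, an adaptor that slows inactivation of Cav1 channels, was separate in the other direction, at 4.00, 4.03, 3.96 and 4.03 on the arrays labelled TNF-/-, against 4.21, 4.20, 4.30 and 4.07 on those labelled TNF+/+ (-0.19 ± 0.06; limma adjusted p = 0.348). Rrad and Stac both had a mean under the median probe set.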

How the data were processed

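Brain RNA of 8 samples, biological replicates per the titles, was measured on 1 array each. The deposited table holds the authors' log2 signal of 35556 probe sets, a scale read from its values (2.83 to 14.1); GCOS, GCRMA and Partek appear in the submitters' processing notes, without versions, and no genome build is given in the sources used here. The titles gave each array its group and number, and no normalization or filter was added to the deposited values.

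Names came from the platform annotation, which pairs 21789 probe sets with 1 symbol, 1621 with several and does not list 12146; 3 probe sets pair a channel gene with several symbols and were not used. All 35 members matched RefSeq GRCm38.p6 by gene ID; that table gave chromosomes and gene order. The members and lists were chosen with earlier results of these data known, so lists have counts and medians and no test.

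The test between groups was limma 3.58.1 (R 4.3.3; lmFit and eBayes, prior degrees of freedom 2.52; two-sided), with p-values adjusted by Benjamini-Hochberg over all probe sets and a threshold of 0.05, and single genes were also compared with the exact permutation test over 70 assignments. SAM was rebuilt in R with those 70 assignments, s0 0.0357 and delta 1.4, at an estimated false discovery rate of 4.49%. The fits were tested on simulated data. The number of arrays limits the precision. Array values are shown for members with an unadjusted p under 0.05 or groups that do not overlap, and for the smallest p and the highest mean of each subfamily. The alternatives tried changed normalization, centring, the filter on dim probe sets, the probe sets used, the variance model, array weights, the replicate block and the arrays included. Python 3.11.15 and matplotlib 3.10.9 made the plots.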

Additional observations from a re-analysis of the deposited data

How the results depend on the processing

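Each value was recomputed under up to 17 alternatives, and calls also by SAM and the exact test. Of 225 values for counts and subfamily medians, these included, 210 stayed within their margin (1.5 times for counts, 1 SD for medians). The SDs, 0.102 to 0.199, exceeded most medians, so a median could change sign within its margin. Direction and side of the threshold stayed for 580 of 623 values of single genes, the exact test included. The exact test, the variance model, the replicate block and the filters on probe sets left these differences as they were. Averaging did so for genes with 1 probe set. Direction could not change in those fits. Channel genes called were 1 in place of 0 when probe sets of a gene were averaged, and 0 whichever replicate was left out. The count of genes lower at an unadjusted p, 1 as reported, was 3 with median centring, 0 with dim probe sets left out, 2 with only probe sets of 1 symbol, 2 with averaged probe sets, 2 with the replicate block, 2 without TNF+/+ 3 and 4, and 0 to 3 leaving out each replicate. The count of higher genes, 5 as reported, was 3 without TNF+/+ 3 and 4, 4 with the replicate block and 4 to 6 leaving out each replicate. Shares of all genes at an unadjusted p were not worked out for the alternatives, so these counts have no background beside them. The alpha2delta median was 0.28 in place of 0.13 with dim probe sets left out. Without TNF+/+ 3 and 4, which an earlier look at these data set apart, differences reversed for Scn2a (-0.12), Scn10a (0.0414), Cacna1d (-0.0695), Cacna1e (-0.0148), Cacnb1 (0.0392), Cacng2 (0.0857) and Cacng5 (-0.021), and the median over sodium channel alpha subunits was 0.0094. With dim probe sets left out the Cav1 median was 0.0324 and that over all channel genes 0.0147. Quantile normalization reversed Scn10a (0.0065) and Cacnb2 (0.0195), and array weights Cacnb4 (0.0046). Leaving out each replicate gave medians of -0.0339 to 0.0288 over all channel genes, 0.0103 to 0.139 for sodium channel alpha, 0.057 to 0.174 for sodium channel beta, -0.0797 to -1.12e-05 for Cav1, -0.0872 to 0.0288 for Cav2, -0.179 to 0.0278 for Cav3, 0.0817 to 0.171 for alpha2delta, -0.0362 to -0.0105 for calcium channel beta and -0.128 to -0.0447 for gamma. For single genes these fits gave -0.0898 to 0.0288 for Cacna1a, -0.102 to 0.0040 for Cacna1b, -0.0976 to 0.0649 for Cacna1c, -0.0152 to 0.177 for Cacna1d, -0.179 to 0.0278 for Cacna1h, -0.0781 to 0.0193 for Cacna2d3, -0.0789 to 0.0159 for Cacnb1, -0.0422 to 0.0331 for Cacnb2, -0.0433 to 0.03 for Cacnb4, -0.114 to 0.0053 for Cacng2, -0.0506 to 0.0947 for Cacng5, -0.128 to 0.0338 for Cacng7, -0.131 to 0.0357 for Cacng8, -0.0706 to 0.0348 for Scn10a, -0.0171 to 0.0965 for Scn2a and -0.0738 to 0.0079 for Scn8a. Without turning sign, Scn3a gave 0.0323 to 0.192, Cacna1g 0.0234 to 0.2 and Cacna1i -0.202 to -0.0209; the cause of these moves was not tested. The deviations of same-numbered arrays from their group means correlated at 0.0672, 0.1115, 0.0974 and 0.0742. TNF-/- 1, 2 and 4 each correlated best with the array of their own number and TNF-/- 3 with TNF+/+ 4 (0.1015), a hint from the data; not every correlation passed 0.1 and the labels do not tie the numbers, so they were not taken as pairs. Over all probe sets limma made 29 calls, 0 with the replicate block, 0 without TNF+/+ 3 and 4 and 1 without TNF+/+ 3.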

Other observations

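Of 86 groups of 4 arrays (the 35 genes and 8 subfamily means in each genotype), 0 held an array further from the rest than Dixon's 95% limit for such groups, which chance passes in about 1 group in 20.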
